A study of Mus musculus with 4 samples.

Results

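Voltage-gated calcium channels were described here through 10 of their subunit genes, taken by name from the 37437 Ensembl genes of the files after identifiers were matched to GENCODE vM21 symbols. They comprised 8 pore-forming alpha1 genes (Cacna1a, Cacna1b, Cacna1c, Cacna1d, Cacna1e, Cacna1g, Cacna1h and Cacna1i) and 2 alpha2delta genes (Cacna2d1 and Cacna2d3). All 10 passed the filter on low values. The files held 26 calcium channel subunit genes in all, and the other 16 are given beside the members.

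The libraries came from primary mouse cortical culture. In the shCTCF group adeno-associated virus carried a knockdown of Ctcf, whose zinc finger protein occupies insulators and stops loop-extruding cohesin. In the shLAC group the same kind of virus carried a knockdown of lacZ, a bacterial gene. Each group had 2 libraries of total RNA, so both carried virus. Mouse strain, age of the cultures, the promoter used in the virus and whether replicates were separate cultures are not stated in the labels, so p-values cover library-to-library spread alone, possibly technical.

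A voltage-gated calcium channel opens when the membrane depolarises and lets calcium into the cell. The alpha1 subunit forms the pore and fixes the channel class. CaV1 channels (L-type) couple activity to gene transcription in neurons, CaV2 channels (P/Q-, N- and R-type) trigger transmitter release and shape dendritic calcium, and CaV3 channels (T-type) open near the resting potential and shape firing. Alpha2delta subunits are extracellular proteins that raise the number of channels at the surface and bind gabapentinoid drugs in some forms, and beta subunits are cytoplasmic partners of CaV1 and CaV2 pores.

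Values are TPM, a share of transcripts corrected for gene length, divided by a median-ratio size factor for each library and called scaled TPM. Scaling was used because 13 satellite-like predicted genes took much of the TPM of shLAC replicate 2. They held 1.29% and 1.86% of all TPM in the shCTCF libraries, against 0.405% and 20.2% in shLAC replicates 1 and 2. These genes were picked for at least 100 TPM in shLAC replicate 2 and at least 5 times their value in shLAC replicate 1. The gap between the shLAC libraries is therefore partly set by that choice. Without scaling, the median log2 fold change of all tested genes was 0.17. Sequencing depth cannot be read from TPM and is unknown. Between 12189 and 12839 genes reached 1 TPM in each library. The labels call the cells cortical neurons. Excitatory and inhibitory neuron markers were present in every library, with astrocyte and oligodendrocyte lineage markers beside them. Fold changes are shCTCF over shLAC on the log2(scaled TPM + 1) scale, which understates those of low genes. They were tested with limma over 12816 genes, and a second fit was restricted to 11268 protein-coding genes with 300 nt or more of exon.

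Ctcf itself was lower in the knockdown. It was at 3.25 and 3.39 scaled TPM in the shCTCF libraries, against 8.14 and 8.78 in the shLAC libraries, 39.2% of the shLAC mean. Ctcf (ENSMUSG00000005698, GRCm38 chromosome 8, 105636568 to 105682922) fell by 1.13 on the log2 scale (limma adjusted p = 0.0173, SE 0.0616). That call was lost without shCTCF replicate 1, shCTCF replicate 2 or shLAC replicate 2 (limma adjusted p = 0.107, 0.0963 and 0.0643). In the coding-gene fit it held without each of the 4 libraries.

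RefSeq (GRCm38.p6) listed promoters for 7 of the 10 members, at 10 starts; Cacna1a, Cacna1g and Cacna1h had no entry. Shown are 4 of them, from 250 bases before to 50 after the start, chosen after the values were seen: Cacna1b and Cacna2d3, which were higher in both shCTCF libraries, Cacna1e, whose groups overlapped, and Cacna1i, which was lower in both. Capitals mark the GC box GGGCGG and the CTCF core heptamers AGGGGGC and AGGTGGC on either strand, with each of 2 overlapping copies counted.
Cacna1b, chr2:24763103-24763402, minus strand: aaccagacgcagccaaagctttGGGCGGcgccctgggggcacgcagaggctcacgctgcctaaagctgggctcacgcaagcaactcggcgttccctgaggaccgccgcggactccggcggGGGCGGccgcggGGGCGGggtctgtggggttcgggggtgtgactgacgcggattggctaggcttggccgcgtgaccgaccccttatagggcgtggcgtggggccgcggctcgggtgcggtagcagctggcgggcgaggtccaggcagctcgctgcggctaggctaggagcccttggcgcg
Cacna2d3, chr14:29721815-29722114, minus strand: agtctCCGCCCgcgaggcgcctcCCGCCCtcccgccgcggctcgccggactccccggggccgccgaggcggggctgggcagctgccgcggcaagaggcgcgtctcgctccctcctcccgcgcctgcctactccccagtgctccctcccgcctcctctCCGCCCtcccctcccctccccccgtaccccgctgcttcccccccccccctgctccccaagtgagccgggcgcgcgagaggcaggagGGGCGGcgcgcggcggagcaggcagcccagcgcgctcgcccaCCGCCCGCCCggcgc
Cacna1e, chr1:154725871-154726170, minus strand: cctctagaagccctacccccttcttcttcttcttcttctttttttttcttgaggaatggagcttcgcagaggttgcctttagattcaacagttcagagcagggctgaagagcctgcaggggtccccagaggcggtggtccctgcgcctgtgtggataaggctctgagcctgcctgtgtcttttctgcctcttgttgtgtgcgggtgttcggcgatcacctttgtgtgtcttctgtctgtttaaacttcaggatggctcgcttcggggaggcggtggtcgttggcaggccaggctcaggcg
Cacna1i, chr15:80286988-80287287, plus strand: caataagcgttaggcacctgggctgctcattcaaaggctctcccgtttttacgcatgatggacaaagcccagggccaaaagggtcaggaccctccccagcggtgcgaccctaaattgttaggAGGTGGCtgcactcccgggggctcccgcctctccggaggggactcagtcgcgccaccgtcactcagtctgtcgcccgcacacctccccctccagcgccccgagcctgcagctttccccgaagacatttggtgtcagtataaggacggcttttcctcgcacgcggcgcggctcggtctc
The Cacna1b and Cacna2d3 windows were rich in G and C (72.3% and 81.3%) and held 35 and 41 CpG dinucleotides, against a median of 52.7% and 7 CpG over 32851 mouse promoters of the same length. Members higher in both shCTCF libraries also had windows at or below the median CpG: of 3 Cacna1c starts, 2 had 51.3% G and C with 7 and 3 CpG and 0 GC boxes and the third 81.3% with 57 CpG and 6 GC boxes. Of 2 Cacna1d starts, 1 had 40.3% with 4 CpG and 0 GC boxes and the other 87.3% with 63 CpG and 6 GC boxes. The Cacna1e window had 55.3% G and C with 11 CpG, and the Cacna1i window 62.7% with 23. GC boxes numbered 3 in Cacna1b, 6 in Cacna2d3 and 0 in Cacna1e and Cacna1i; 35.7% of all promoters held at least 1. A CTCF core heptamer occurred once in the Cacna1i window and in none of the other 3 shown, and 16.0% of all promoters held one. Outside the windows shown, it also occurred once in the Cacna2d1 window, where it overlapped GC boxes, and once at the upstream start of Cacna1d. The Cacna1e start lies inside the gene as GENCODE bounds it (chromosome 1, 154390731 to 154884501), and gene-level TPM does not tell which start was used.

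Among members, Cacna2d1 was the most abundant in every library, at 60.6 to 69.6 scaled TPM. Next came Cacna1e (25.6 to 26.8) and Cacna2d3 (15.1 to 19.5), each clear of its neighbours in the order. From there the ranges of neighbours overlapped, in the order Cacna1c (10.3 to 13.05), Cacna1b (8.78 to 11.5), Cacna1a (6.92 to 9.77), Cacna1h (4.15 to 7.32), Cacna1d (3.90 to 4.79), Cacna1g (3.615 to 4.74) and Cacna1i (2.90 to 3.64). The culture therefore held transcripts of every CaV2 and CaV3 pore and of the L-type pores Cacna1c and Cacna1d. The retinal L-type gene Cacna1f was at 0 TPM in both shCTCF libraries and 0.01 TPM in each shLAC library, and the skeletal muscle L-type gene Cacna1s at 0.04 and 0.05 TPM in shCTCF and 0.05 and 0.03 TPM in shLAC.

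**Figure D1:**
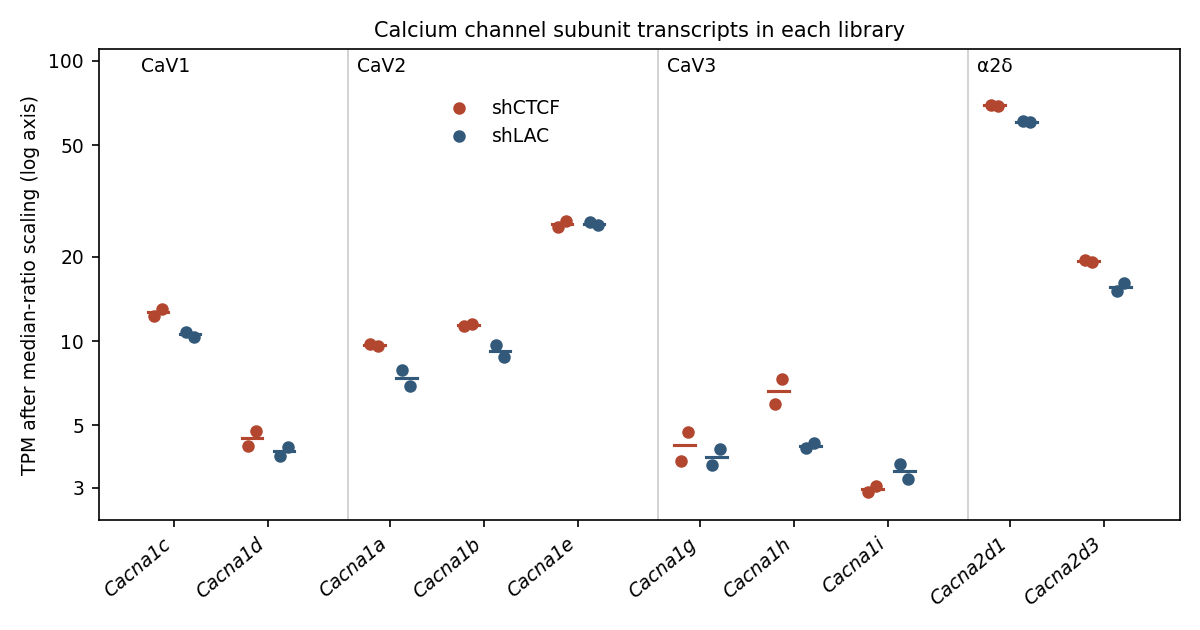
Scaled TPM of the 10 members on a log axis, by channel class. Points are single libraries, with shCTCF left of shLAC for each gene, and short lines are group means (n = 2). Both shCTCF points lie above both shLAC points in 7 genes and below them in Cacna1i.

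Most members were higher after CTCF knockdown. Both shCTCF values lay above both shLAC values in 7 of 10 members, against 27.6% of all tested genes, and below them in 1, against 25.4%. The median log2 fold change of the members was 0.21, beside 0.0022 over all tested genes. A log2 fold change above 0 was seen in 8 of 10, against 50.5% of tested genes. Over all tested genes limma called 0 of the 10 members, where it called 1.05% of 12816 genes (0.367% higher and 0.679% lower). At an unadjusted p below 0.05, 6 members were higher and 0 lower, where 10.2% of tested genes were higher and 9.76% lower.

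In the coding-gene fit 4 members rose: Cacna1h, Cacna1a, Cacna2d3 and Cacna1b, and 0 fell. That count changed with the library left out, and such fits leave 1 library in a group. Fewer passed without a shCTCF library than without a shLAC library, among the members as among all coding genes. The coding-gene fit called 6.13% of its genes, with 300 higher (2.66%) and 391 lower (3.47%). As deposited, without scaling, only Cacna1h of the 10 members passed (limma adjusted p = 0.0141), where 2.82% of genes were called (1.92% higher and 0.905% lower). For 1 gene, 2 against 2 libraries allow no two-sided p below 0.333 in an exact permutation test.

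**Figure D2:**
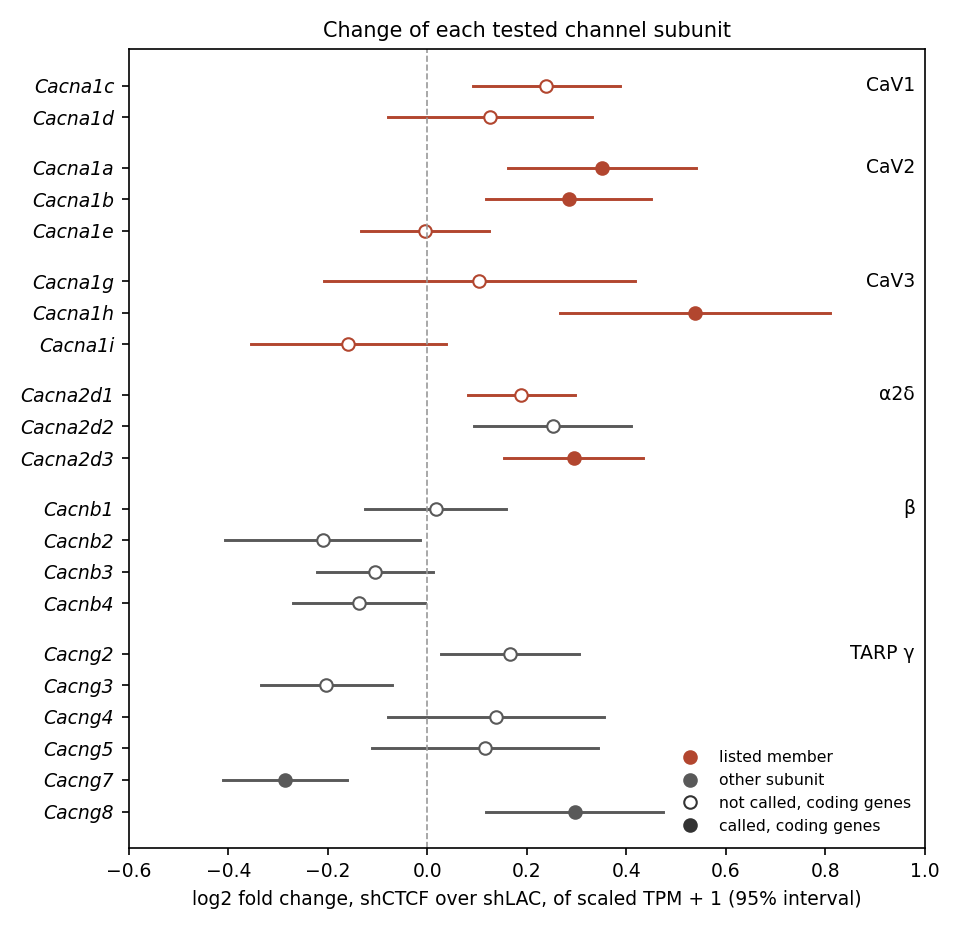
Log2 fold change, shCTCF over shLAC, of scaled TPM + 1 for the 21 subunit genes that passed the filter, with 95% intervals from limma over all tested genes. Red marks listed members and grey the other subunits. Filled points passed the coding-gene fit, 5 of them higher and 1, Cacng7, lower; none passed over all tested genes (limma).

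Of the L-type genes, Cacna1c, the main L-type pore of forebrain neurons, was higher in both shCTCF libraries and did not pass either fit. It was at 12.2 and 13.05 scaled TPM in shCTCF, against 10.8 and 10.3 in shLAC. Its log2 fold change was 0.24 (limma adjusted p = 0.135, or 0.0618 in the coding-gene fit, SE 0.0554). Without shLAC replicate 1 the coding-gene log2 fold change of Cacna1c was 0.27. Cacna1d, which opens at more negative potentials, was at 4.22 and 4.79 scaled TPM in shCTCF, against 3.90 and 4.19 in shLAC. Its groups were separated by a narrow margin and its log2 fold change was 0.13 (95% interval -0.08 to 0.33, limma adjusted p = 0.431). Cacna1d was at 0.052 without shCTCF replicate 2, 0.20 without shCTCF replicate 1 and 0.086 without shLAC replicate 1. Summed, the CaV1 members reached 16.5 and 17.8 scaled TPM in shCTCF, against 14.7 and 14.5 in shLAC. Cacna1c spans 118587240 to 119196418 on the minus strand of chromosome 6, and Cacna1d 30039939 to 30491455 on the minus strand of chromosome 14 (GRCm38). The decapping genes Dcp1b and Dcp1a overlap them on the opposite strand at 1.62 to 3.53 TPM, and strandedness of the counting is not stated.

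Both presynaptic CaV2 genes rose in the coding-gene fit, while the R-type gene did not pass. Cacna1a, the P/Q-type pore that drives fast transmitter release, was at 9.77 and 9.59 scaled TPM in shCTCF, against 7.85 and 6.92 in shLAC. All shCTCF values exceeded the shLAC values, with a log2 fold change of 0.35 (limma adjusted p = 0.113, SE 0.0711; 0.0366 in the coding-gene fit). Cacna1b, the N-type pore, was at 11.3 and 11.5 scaled TPM in shCTCF, against 9.68 and 8.78 in shLAC. Its log2 fold change was 0.28 (limma adjusted p = 0.125, SE 0.0619; 0.0483 in the coding-gene fit). Cacna1e, the R-type pore and the most abundant alpha1 transcript, was at 25.6 and 26.8 scaled TPM in shCTCF, against 26.7 and 25.9 in shLAC. The groups interleaved and the log2 fold change of Cacna1e was -0.0042 (95% interval -0.13 to 0.12).

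Both CaV2 calls were lost without either shCTCF library, where the fold changes moved little. The fold changes moved more without a shLAC library. In the coding-gene fit Cacna1a had a limma adjusted p of 0.101 without shCTCF replicate 1 and 0.111 without shCTCF replicate 2. Cacna1b had 0.113, 0.181 and 0.0839 without shCTCF replicate 1, shCTCF replicate 2 and shLAC replicate 2. Without shCTCF replicates 1 and 2 in turn the coding-gene log2 fold change was 0.34 and 0.37 for Cacna1a and 0.30 and 0.27 for Cacna1b, and 0.35 and 0.29 with all 4 libraries. Without shLAC replicates 1 and 2 in turn it was 0.43 and 0.28 for Cacna1a and 0.35 and 0.23 for Cacna1b. The ratio of Cacna1a to Cacna1e TPM, which no scaling between libraries can move, was 0.382 and 0.358 in shCTCF, against 0.295 and 0.268 in shLAC. That ratio follows from the values of these genes given above and is not a separate result. On GRCm38, Cacna1a lies on chromosome 8 (84388440 to 84640246, plus strand), Cacna1b on chromosome 2 (24603887 to 24763152, minus strand) and Cacna1e on chromosome 1 on the minus strand. The antisense gene Gm16183 overlaps Cacna1a at 0.21 to 0.45 TPM.

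Of the T-type genes, 1 of 3 passed the coding-gene fit. Cacna1h had the largest log2 fold change among the members, 0.54 (limma adjusted p = 0.102, SE 0.102), and rose in the coding-gene fit (limma adjusted p = 0.0267). It was at 5.95 and 7.32 scaled TPM in shCTCF, against 4.15 and 4.32 in shLAC, 157% of the shLAC mean, and the groups stood clear of each other. As deposited it was at 6.52 and 7.69 TPM in shCTCF, against 4.33 and 3.60 TPM in shLAC. The coding-gene call was lost without shCTCF replicate 2 (log2 fold change 0.41, limma adjusted p = 0.0770) and held without each of the other 3 libraries. Of all tested genes, 162 had a larger log2 fold change.

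Cacna1g, the T-type pore known for burst firing in thalamus, was at 3.74 and 4.74 scaled TPM in shCTCF, against 3.615 and 4.10 in shLAC. Its groups overlapped, with a log2 fold change of 0.10 (95% interval -0.21 to 0.42), which became -0.032 without shCTCF replicate 2, 0.24 without shCTCF replicate 1, 0.034 without shLAC replicate 1 and 0.18 without shLAC replicate 2. Cacna1i, whose currents are the slowest of the T-type family, was the one member with both shCTCF values below both shLAC values. It was at 2.90 and 3.04 scaled TPM in shCTCF, against 3.64 and 3.23 in shLAC, with a log2 fold change of -0.16 (95% interval -0.35 to 0.04, limma adjusted p = 0.321). The Cacna1i value was -0.089 without shLAC replicate 1 and -0.0081 as deposited, where the groups overlapped (3.18 and 3.19 TPM in shCTCF, against 3.80 and 2.69 TPM in shLAC). Cacna1h lies on chromosome 17 (25374285 to 25433783, minus strand), Cacna1g on chromosome 11 (94408391 to 94474198, minus strand) and Cacna1i on chromosome 15 (80287238 to 80398279, plus strand).

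Within a library, the share of each pore in the summed TPM of the 8 alpha1 members does not depend on scaling. Cacna1e made up 33.8% and 33.1% of this pool in shCTCF, against 37.9% and 38.2% in shLAC. Cacna1h made up 7.86% and 9.05% in shCTCF, against 5.91% and 6.38% in shLAC, and Cacna1a 12.9% and 11.9% in shCTCF, against 11.2% and 10.2% in shLAC. The share of Cacna1b was 15.0% and 14.3% in shCTCF, against 13.8% and 13.0% in shLAC, and that of Cacna1i 3.83% and 3.76%, against 5.19% and 4.76%. In these 5 genes the shares of the groups did not overlap, nor did those of Cacna1c, while those of Cacna1d and Cacna1g did. Such separation was common: in scaled TPM, 27.6% of all tested genes were above in both shCTCF libraries and 25.4% below. A share can fall because others rise, so the shares of a library are not independent, and they were not tested.

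Summed by class, CaV2 genes held 61.6% and 59.3% of the alpha1 TPM in shCTCF, against 62.9% and 61.4% in shLAC, and CaV3 genes 16.6% and 18.7%, against 16.2% and 17.2%. Both pairs overlapped. CaV1 genes held 21.7% and 22.1% in shCTCF, against 20.9% and 21.4% in shLAC. In summed scaled TPM, shCTCF was at 117.5% of shLAC for CaV1, 110.3% for CaV2, 120.1% for CaV3 and 116.2% for the alpha2delta members. The SDs were 6.71, 5.18, 15.5 and 1.22, from the spread of 2 libraries a group. Mean scaled TPM of Cacna1h was 6.64 in shCTCF and 4.24 in shLAC, which made up most of the CaV3 difference. Cacna1g was at 4.24 and 3.86 and Cacna1i at 2.97 and 3.44. Cacna2d1 weighs most in the alpha2delta sum.

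**Figure D3:**
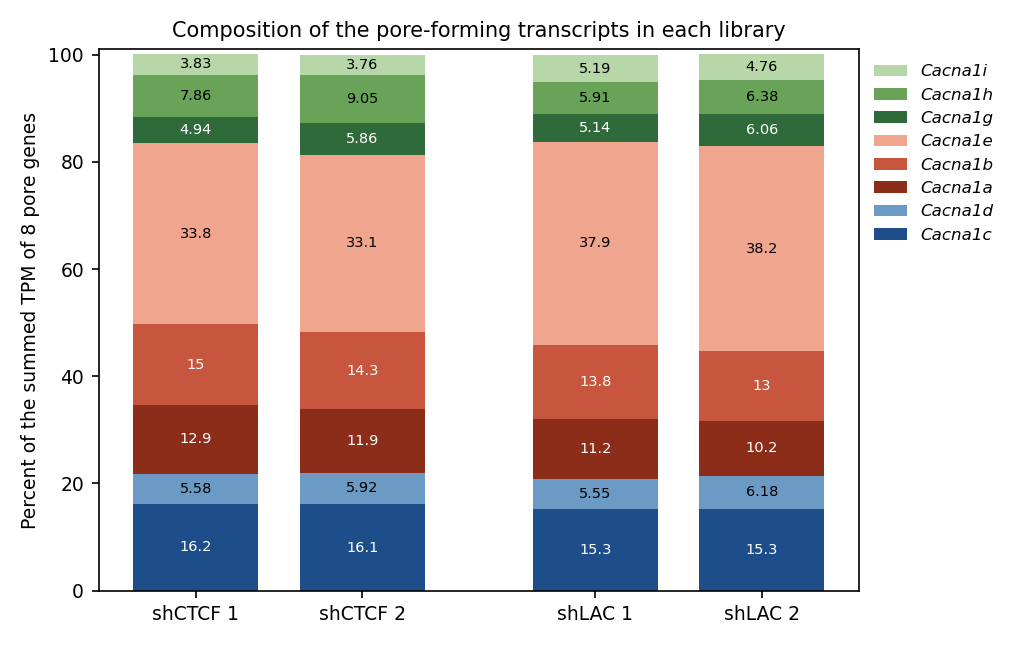
Percent of the summed TPM of the 8 pore-forming genes held by each gene, with 1 bar for each library and the shCTCF libraries on the left. The Cacna1e segment is 33.8% and 33.1% in shCTCF and 37.9% and 38.2% in shLAC, and the Cacna1h segment is the larger one in both shCTCF libraries.

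Alpha2delta genes were higher in both shCTCF libraries, and 1 passed the coding-gene fit. Cacna2d3 (chromosome 14, 28904943 to 29721864, minus strand), an alpha2delta gene known for roles at synapses, was at 19.5 and 19.2 scaled TPM in shCTCF, against 15.1 and 16.1 in shLAC. The groups were clear of each other and the log2 fold change of Cacna2d3 was 0.29 (limma adjusted p = 0.0939, SE 0.0523). It rose in the coding-gene fit (limma adjusted p = 0.0325), a call lost without either shCTCF library (limma adjusted p = 0.101 and 0.111). Cacna2d1 (chromosome 5, 15934691 to 16374511, plus strand), a receptor of gabapentin, was at 69.6 and 69.1 scaled TPM in shCTCF, against 60.8 and 60.6 in shLAC. Libraries of a group lay close together, and its log2 fold change of 0.19 (SE 0.0404) did not pass (limma adjusted p = 0.122; 0.0549 in the coding-gene fit).

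Of the other alpha2delta genes, Cacna2d2, also a gabapentin receptor, was at 3.54 and 3.73 scaled TPM in shCTCF, against 2.86 and 2.93 in shLAC (log2 fold change 0.25, limma adjusted p = 0.138; 0.0786 in the coding-gene fit). Cacna2d4, known from retina, stayed below 0.2 TPM and was not tested. Summed over these 4 genes, alpha2delta TPM per alpha1 TPM was 1.23 and 1.14 in shCTCF, against 1.12 and 1.18 in shLAC, so it did not separate the groups. The predicted gene Gm43490 lies within Cacna2d1 on the same strand, at 2.92 and 2.77 TPM in shCTCF and 2.28 and 1.96 TPM in shLAC. On the opposite strand, Gm43000 overlaps Cacna2d1 (1.04 and 1.1 TPM in shCTCF, 0.87 and 0.68 TPM in shLAC) and Lrtm1 overlaps Cacna2d3 (1.24 and 1.21 TPM in shCTCF, 0.84 and 0.53 TPM in shLAC).

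Of the 4 beta subunit genes 0 passed limma in either fit. At an unadjusted p below 0.05 Cacnb2 and Cacnb4 were lower, where 9.76% of all tested genes were. Cacnb3, the most abundant of them here, was at 25.7 and 26.5 scaled TPM in shCTCF, against 27.9 and 28.4 in shLAC (log2 fold change -0.11, limma adjusted p = 0.282). Cacnb4, whose loss causes ataxia and seizures in mice, was at 10.3 and 9.98 scaled TPM in shCTCF, against 11.0 and 11.5 in shLAC (log2 fold change -0.14, limma adjusted p = 0.238). Cacnb2, a principal beta subunit of heart, was at 5.04 and 5.71 in shCTCF, against 6.23 and 6.503 in shLAC (log2 fold change -0.21, limma adjusted p = 0.227). These 3 were lower in both shCTCF libraries after scaling, against 25.4% of all tested genes. As deposited, Cacnb3 and Cacnb4 had log2 fold changes of 0.090 and 0.047. Cacnb1 overlapped between groups, at 18.1 and 19.3 scaled TPM in shCTCF and 18.2 and 18.7 in shLAC.

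The summed beta TPM per summed alpha1 TPM was 0.781 and 0.760 in shCTCF, against 0.901 and 0.961 in shLAC, a ratio within each library that scaling does not change. All shCTCF values lay below all shLAC values, and with 2 libraries a group the exact permutation test cannot give a two-sided p under 0.333.

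Gamma-type genes divided. Cacng1 and Cacng6, the gamma subunits of the channels proper, did not reach 1 TPM in 2 libraries. The other 6 encode TARPs, auxiliary proteins of AMPA receptors that share the fold of gamma subunits. In the coding-gene fit Cacng8 rose and Cacng7 fell, where 2.66% of genes rose and 3.47% fell. Over all tested genes 0 of 6 passed. At an unadjusted p below 0.05 there, Cacng8 and Cacng2 were higher and Cacng7 and Cacng3 lower, beside 10.2% and 9.76% of all tested genes. Cacng8 was at 17.4 and 17.8 scaled TPM in shCTCF, against 14.95 and 13.4 in shLAC (log2 fold change 0.30, limma adjusted p = 0.128; 0.0458 in the coding-gene fit). Cacng7 was at 8.92 and 9.14 in shCTCF, against 11.3 and 11.2 in shLAC (log2 fold change -0.29, limma adjusted p = 0.0857; 0.0336 in the coding-gene fit). Neither set of values overlapped. Both coding-gene calls were lost without either shCTCF library (limma adjusted p = 0.0987 and 0.166 for Cacng8, 0.12 and 0.116 for Cacng7), and that of Cacng8 without shLAC replicate 2 (limma adjusted p = 0.0637). Cacng2, the stargazin gene, was at 5.45 and 5.53 in shCTCF and 4.71 and 4.86 in shLAC, Cacng3 at 11.9 and 12.6 against 14.2 and 14.2, Cacng4 at 13.1 and 12.9 against 10.9 and 12.7, and Cacng5 at 2.75 and 2.92 against 2.76 and 2.33.

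**Figure D4:**
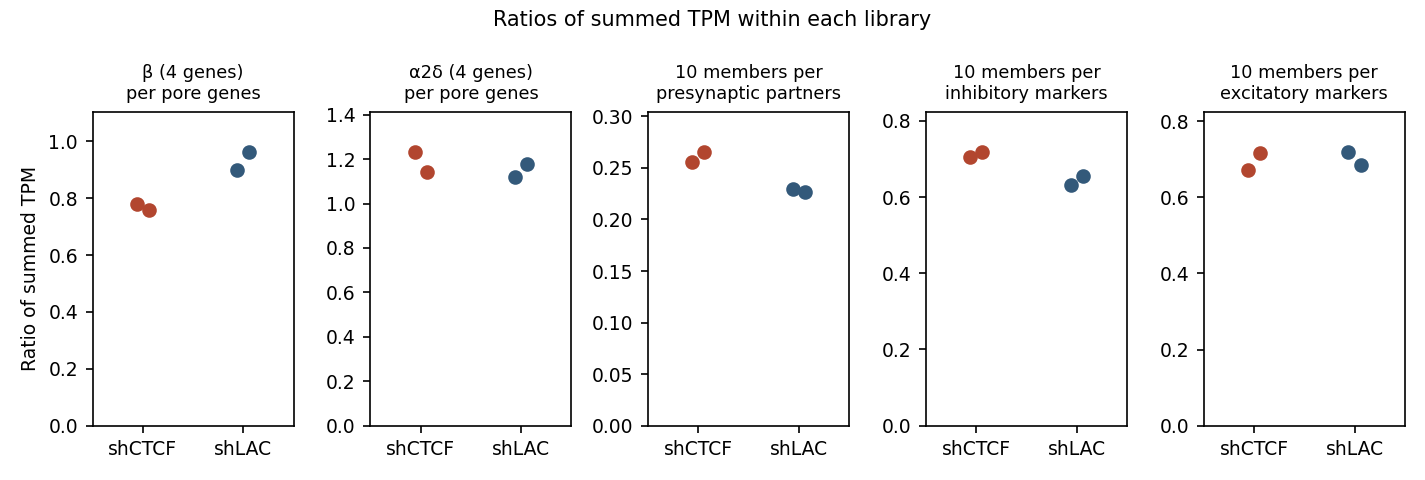
Ratios of summed TPM within each library; every axis starts at 0, points are libraries and shCTCF is left of shLAC in each panel. The beta per pore ratio is lower in both shCTCF libraries (0.781 and 0.760, against 0.901 and 0.961), and the members per excitatory marker ratio overlaps between groups.

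Cell type markers were measured in the same libraries. In bulk RNA, a change in the share of cells of a type and a change of RNA per cell cannot be told apart. The 8 excitatory neuron markers, led by Camk2a and Slc17a7, summed to 245.6 and 235.8 scaled TPM in shCTCF, against 203.5 and 211.1 in shLAC. Camk2a and Slc17a7, with means of 100.7 and 85.55 in shCTCF and 81.71 and 71.64 in shLAC, weigh most in that sum. Of the 8, 5 were higher in both shCTCF libraries, against 27.6% of all tested genes, and 3 overlapped between groups. A negative log2 fold change was seen in 2. None of the 8 passed in limma over all tested genes or in the coding-gene fit. At an unadjusted p below 0.05, 4 were higher, against 10.2% of all tested genes. Camk2a, a kinase of excitatory synapses, had a log2 fold change of 0.30 (limma adjusted p = 0.182), and Slc17a7, a vesicular glutamate transporter, 0.25 (limma adjusted p = 0.178). Camk2a was at 0.19 without shLAC replicate 1, and in the coding-gene fit at 0.42 without shLAC replicate 2. Slc17a7 was at 0.33 there without shLAC replicate 1. Each such fit leaves 1 shLAC library. Summed TPM of the 10 members per summed TPM of these markers was 0.671 and 0.717 in shCTCF, against 0.718 and 0.685 in shLAC, which overlapped. The part of excitatory marker levels in the members' changes was not tested.

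Per TPM of the inhibitory markers, unlike the excitatory ones, the members' sum was separate between groups. Cacna2d1, the most abundant member, weighs most in that sum. The 8 inhibitory neuron markers, led by Sst and Gad1, summed to 234.1 and 236.0 scaled TPM in shCTCF, against 231.5 and 220.8 in shLAC. Members per inhibitory marker TPM was 0.704 and 0.717 in shCTCF, against 0.631 and 0.655 in shLAC. Among these markers Slc32a1, the vesicular GABA transporter, rose in the coding-gene fit (log2 fold change 0.36, limma adjusted p = 0.0450), a call lost without either shCTCF library (limma adjusted p = 0.0776 and 0.159). Over all tested genes 0 of the 7 tested passed. At an unadjusted p below 0.05, 1 was higher and 1 lower, beside 10.2% and 9.76% of all tested genes. Sst and Gad1 had log2 fold changes of 0.03 and 0.11 and did not pass. Gad1 was at 0.18 without shLAC replicate 1 and 0.032 without shLAC replicate 2.

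The astrocyte markers were lower in sum, at 91.2 and 74.8 scaled TPM in shCTCF, against 113.5 and 98.3 in shLAC. In the coding-gene fit Aqp4, the astrocyte water channel, fell by 1.07 (limma adjusted p = 0.0149) and Slc1a3, a glial glutamate transporter, by 0.52 (limma adjusted p = 0.0204), and 6 of the 8 did not pass. Over all tested genes 0 of 8 passed, and 2 were lower at an unadjusted p below 0.05, where 9.76% of all tested genes were. After scaling, 3 of the 8 were lower in both shCTCF libraries, against 25.4% of all tested genes, and 4 overlapped between groups. The other, Sox9, was higher in both (log2 fold change 0.19). Oligodendrocyte lineage markers, such as Olig1 and Pdgfra, summed to 83.96 and 76.0 in shCTCF and 82.6 and 69.3 in shLAC, with 0 of 7 tested passing either fit and 0 at an unadjusted p below 0.05. Of the 8 microglia markers only Cd68 was tested, and it did not pass (log2 fold change -0.17); the list summed to 2.46 and 2.27 scaled TPM in shCTCF and 2.47 and 3.04 in shLAC. Of the 8 fibroblast and endothelial markers only Dcn was tested; it fell by 0.48 in the coding-gene fit (limma adjusted p = 0.0215), a call lost without shCTCF replicate 2 (limma adjusted p = 0.0967). That list summed to 2.32 and 2.03 scaled TPM in shCTCF and 3.48 and 3.49 in shLAC, and Cldn5 was at 0 in all 4 libraries. The part of the astrocyte markers in the members' changes was not tested.

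Genes that act with the channels mostly did not pass. Of 14 presynaptic partners, which hold CaV2 channels near vesicles or drive fusion, 13 were tested and 0 passed limma in either fit; at an unadjusted p below 0.05 over all tested genes 2 were higher. Their sum was 642.9 and 637.6 scaled TPM in shCTCF and 636.0 and 637.0 in shLAC, with log2 fold changes of -0.11 for Snap25 and 0.09 for Syt1, the most abundant. Members per presynaptic partner TPM was 0.256 and 0.265 in shCTCF, against 0.230 and 0.227 in shLAC.

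Of 14 channel-binding regulators 11 were tested. Over all tested genes 0 passed limma, and 2 fell in the coding-gene fit, where 3.47% of genes did. At an unadjusted p below 0.05, 1 was higher and 2 were lower, beside 10.2% and 9.76% of all tested genes. A negative log2 fold change was seen in 6 of the 11. Akap5, which anchors protein kinase A and calcineurin at L-type channels, was at 26.1 and 25.9 scaled TPM in shCTCF, against 32.1 and 32.5 in shLAC. It fell by 0.30 in the coding-gene fit (limma adjusted p = 0.0190), and its limma adjusted p over all tested genes was 0.0664. Cabp1, a calmodulin-like protein that modulates CaV channels, fell by 0.28 in the coding-gene fit (limma adjusted p = 0.0441; 0.112 over all tested genes). Both calls were lost without either shCTCF library (limma adjusted p = 0.0606 and 0.0936 for Akap5, 0.145 and 0.111 for Cabp1), and that of Cabp1 without shLAC replicate 1 (limma adjusted p = 0.0676). Calm2, a calmodulin gene and the most abundant of this list, had a log2 fold change of -0.06 and did not pass either fit. The RGK inhibitors Gem, Rrad and Rem1 were too low to test.

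Among 19 tested genes of calcium stores and clearance, of 22 listed, 1 rose in the coding-gene fit, where 2.66% of genes did. Over all tested genes 0 passed. At an unadjusted p below 0.05 there, 4 were higher and 1 lower, beside 10.2% and 9.76% of all tested genes. Atp2b2, a calcium pump of the plasma membrane, rose by 0.23 (limma adjusted p = 0.0449), a call lost without either shCTCF library (limma adjusted p = 0.0901 and 0.218). The store pump gene Atp2a2 and the plasma membrane pump gene Atp2b1 had log2 fold changes of 0.08 and 0.06 and did not pass. Of 18 genes that carry calcium signals to the nucleus, 16 were tested and 0 passed limma in either fit. A positive log2 fold change was seen in 14, against 50.5% of all tested genes, with a median of 0.13. At an unadjusted p below 0.05, 6 of the 16 were higher in the fit over all tested genes, where 10.2% of genes were. The calcineurin gene Ppp3ca and the kinase gene Camk2b, its most abundant members, had log2 fold changes of 0.02 and 0.08.

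**Figure D5:**
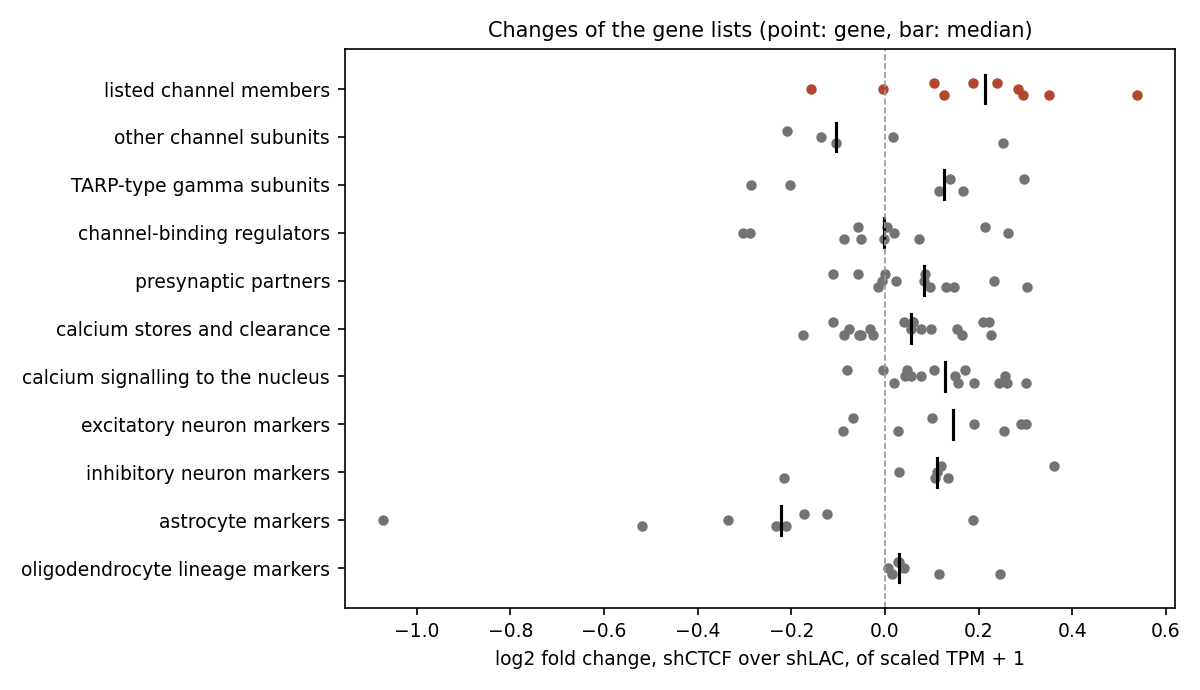
Log2 fold change, shCTCF over shLAC, of scaled TPM + 1 for the tested genes of each list; points are genes, black bars are medians and the dashed line is 0. The members' median is 0.21 and that of the astrocyte markers -0.22. The other channel subunits, with 5 tested genes (the 4 beta genes and Cacna2d2), have a median of -0.11, and the TARP-type gamma subunits one of 0.13.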

How the data were processed

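Total RNA of 4 libraries of primary mouse cortical culture was sequenced as paired reads. The deposited files held TPM per Ensembl gene, 1 file per library, as made by the authors. The tools RSEM 1.2.28 and CASAVA and the build mm10 are listed, without roles, per the submitters' processing notes. Not given in the sources used here were the aligner, the annotation release and strandedness. TPM divides estimated reads by length and by the library's total, so abundant RNA lowers all other genes, and depth is lost; precision rests on the spread between libraries.

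GENCODE vM21 (GRCm38, the assembly of mm10) named 37060 of 37437 identifiers. The filter kept genes that reached 1 TPM in 2 libraries or more. Values were divided by median-ratio size factors, transformed as log2(value + 1) and fitted in limma 3.58.1 (R 4.3.3) without covariates, using a mean-variance trend and a Benjamini-Hochberg threshold of 0.05. TPM are not counts, so no count model was used. The coding-gene fit left out the satellite-like genes. As deposited, the prior had infinite degrees of freedom, so p there does not measure a gene's own spread. The fit over all tested genes was run on simulated data whose changes were larger than any member's in that fit. That run therefore does not tell how the fit handles changes as small as the members'.

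The members and gene lists were chosen with earlier results of these data known. Named genes were Ctcf, the members, every tested subunit, and from each list the called genes or, with none called over all tested genes, the 2 most abundant. List genes called in the coding-gene fit were named after their values were seen. A gene that the rule would name is not reported here. No list was tested as a set. Alternatives were other scalings, filters, pseudocounts, priors, leaving out single libraries and a replicate block.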

Additional observations from a re-analysis of the deposited data

How the results depend on the processing

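Over all tested genes 47 were higher and 87 lower; as deposited 246 were higher and 116 lower, and in the coding-gene fit 300 and 391. Higher genes numbered 11 with no filter and 8 with a replicate block, and lower genes 13 with no filter, 51 at 5 TPM and 12 with a replicate block. With 1 library left out, higher genes ranged from 4 to 42 and lower genes from 8 to 62, and in the coding-gene fit, an alternative added after seeing the data, from 80 to 521 and from 142 to 609. With all 4 libraries, members called higher were 1 as deposited, 4 in the coding-gene fit and 0 in every other setting, the replicate block included. No member was called lower in any setting. The coding-gene count changed with the library left out. The cause of these shifts was not tested. Same-numbered libraries deviated together weakly (r = 0.0817 over genes), so the numbers were not taken to pair the samples. Class sums as deposited were 134.1% (CaV1), 125.7% (CaV2), 137.3% (CaV3) and 133.0% (alpha2delta) of shLAC. With 1 library left out, the scaled sums ranged from 112.8% to 122.2%, 107.1% to 113.8%, 109.2% to 131.0% and 115.6% to 116.9%.

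Of the members, 7 kept a log2 fold change above 0 and Cacna1i one below 0 in every setting that gave a value. Log2 fold changes that turned sign as deposited were those of Cacna1e (0.19), Cacnb3 (0.090), Cacnb4 (0.047), Calm2 (0.14), Snap25 (0.090) and Slc1a2 (0.071). With 1 library left out, in either fit, those that turned sign ranged from -0.036 to 0.034 for Cacna1e, -0.032 to 0.25 for Cacna1g, -0.027 to 0.068 for Cacnb1, -0.026 to 0.085 for Sst, -0.26 to 0.0091 for Slc1a2, -0.018 to 0.25 for Olig1 and -0.12 to 0.17 for Pdgfra. The CaV3 share of pore TPM, higher by 0.934 percentage points in shCTCF, ranged from -0.0885 to 1.96. Depth is unknown, so its limit on low genes cannot be given.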
